A study of Mus musculus with 8 samples.

Results

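Exponential proliferation and clonal expansion, both states in which 3T3-L1 cells move through the cell cycle, were compared gene by gene. The comparison used the 2 proliferation and 2 clonal expansion libraries, 4 of the 8 RNA-seq libraries in the series, and 14647 of the 22798 genes in the deposited table, those whose mean across all libraries reached 10. 3T3-L1 is a clonal line of mouse preadipocytes from Swiss albino stock, so every value describes that clone. Proliferating cells were growing exponentially in DMEM with 10% fetal bovine serum. The labels give 10% serum for the clonal expansion cells and the other libraries too. Clonal expansion cells were taken 10 hours after the medium received IDX, a cocktail that the labels give as insulin (5 µg/µl), dexamethasone (1 µM) and isobutylmethylxanthine (0.25 mM), and how long they had been confluent before is not stated. The other libraries were 2 of quiescent cells, confluent for 48 hours, and 2 of differentiated cells, 6 days after the cocktail was first added and on insulin alone after 48 hours. They shared in the estimate of the spread, and quiescence values are given below beside those of the cycling cells. No comparison with quiescence was tested here. Each state has a library from experiment 1 and one from experiment 2, and whether these were separate cultures is not stated, so the p-values cover only the variation seen from one library to the other of a state, which could be technical. Cell density, time in culture and the 3 agents of the cocktail differed together between the states and cannot be told apart.

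Cyclin D and cyclin E kinases release E2F transcription factors from the retinoblastoma proteins, E2F then turns on the genes of DNA replication, and the MuvB complex with B-Myb and FoxM1 turns on the genes of mitosis later in the cycle. Confluent 3T3-L1 cells given the cocktail re-enter the cycle in near synchrony, replicate their DNA, divide, and go on to become fat cells. Dexamethasone acts through the glucocorticoid receptor, isobutylmethylxanthine raises cyclic AMP by blocking phosphodiesterases, and insulin at a high dose acts through the insulin and IGF1 receptors. RNA was measured here, and neither DNA content nor division was.

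Values are the authors' pseudo-counts, read counts brought to a common library size, and differences, given ± SE, are log2 fold changes of (value + 1), clonal expansion minus proliferation, from limma with Benjamini-Hochberg adjustment over all genes tested (n = 2 libraries a state). A gene is called where the adjusted p is under 0.05, and the scale understates changes of genes near 0. The pseudo-counts summed to 122413485 and 123940067 at proliferation and to 151529060 and 146570940 at clonal expansion. The 2 libraries of a state correlated across genes at r = 0.995 and 0.996 on the log2 scale and differed by a median of 0.149 and 0.128. Proliferation replicate 2 held more RNA of immediate early genes than replicate 1. Egr2, a zinc finger factor of that class, stood at 785 and 7662 in the 2 libraries. Results that move without that library are given with and without it. The median difference ran from 0.0921 in the fifth of genes with the shortest transcripts to -0.0589 in the fifth with the longest, and with a trend on length and GC content removed from each library 57.5% of the calls were higher. Preadipocyte markers were present in all 4 libraries, and T cell marker Cd3e, haemoglobin gene Hba-a1, epithelial marker Epcam, endothelial marker Erg and muscle marker Myod1 were listed at about 0 in each. Other markers on the same lists were present, reaching 3415 for Lyz2 (macrophage), 1915 for Flt1 (endothelium), 9777 for Krt15 (epithelium) and 1321 for Des (muscle) in the highest of the 4 libraries. In bulk RNA, fewer cells of a type and less RNA per cell cannot be told apart.

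Of the 14647 genes, 9500 (64.9%) were called, 4792 (32.7%) higher and 4708 (32.1%) lower at clonal expansion, and these shares are the background for every gene group below. By at least 2-fold, 1740 genes (11.9%) were higher and 2628 (17.9%) lower. With each library scaled to the same total instead, the median difference moved from 0.0029 to -0.27 and the calls to 3183 higher and 6400 lower, so that 33.2% of the calls were higher and not 50.4%. The direction of a difference smaller than that shift depends on the scaling. With 1 library left out, between 7978 and 10063 genes were called.

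The largest rises included genes of secreted and acute phase proteins. Ear1, a ribonuclease of the eosinophil-associated family (mm9 chr14:44396431-44397304), stood at 2.07 and 2.14 at proliferation and 6969.5 and 6150.3 at clonal expansion. Reads of that family's near-identical copies may be split between them, so its value is uncertain. Pip, prolactin induced protein, stood at 2.12 and 10.3 at proliferation and 9166 and 11492 at clonal expansion. Retnla, a resistin-like secreted protein, was listed at about 0 in both proliferation libraries and at 976 and 706 at clonal expansion. The rule for the largest changes took only genes whose groups did not overlap, which held for 12443 of the 14647 genes tested. Ramp3, a partner of the calcitonin family receptors, rose by 8.70 ± 0.36 (SE, adjusted p = 1.39e-07), from 52.7 and 50.4 to 24309 and 19609. Prg4, the joint lubricant lubricin, rose from 34.7 and 53.03 to 11369.9 and 12834. Fgl2, a fibrinogen-like protein, rose from 13.5 and 10.1 to 2121 and 2536. Serpina3k, a serine protease inhibitor, stood at 1.04 and 0.916 at proliferation and 386 and 327 at clonal expansion. Krt23, an epithelial keratin, stood at about 0 and 1.04 at proliferation and 615 and 536 at clonal expansion. The 12 largest rises also held Lcn2, Saa3 and Fam107a, described with the glucocorticoid genes, and Alpl, an alkaline phosphatase of bone, at 51.2 and 27.3 at proliferation and 6513 and 5349 at clonal expansion.

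Among the largest falls, Pdgfb, the B chain of platelet-derived growth factor, stood at 926 and 803 at proliferation and 20.0 and 2.93 at clonal expansion, a log2 fold change of -6.57 ± 0.59 (SE, adjusted p = 8.83e-06). Sh2d3c, an adaptor protein, fell by 6.37 ± 0.16 (SE, adjusted p = 1.32e-08), from 1720.3 and 1427 to 18.9 and 17.2, and stood at 1689.8 and 1559 at quiescence. Ifi47, an interferon-induced GTPase, stood at 379 and 207 at proliferation and 4.76 and 1.34 at clonal expansion. Groups that do not overlap were part of the rule for the largest falls as well. Tlr1, a receptor for bacterial lipopeptides, fell from 198 and 293 to 2.83 and 2.42, and Rxfp1, the relaxin receptor, from 313 and 274 to 4.25 and 6.79. Sorbs2, an actin-binding adaptor, fell by 5.67 ± 0.25 (SE, adjusted p = 1.75e-07). Pde1b, a calcium-dependent phosphodiesterase, fell from 804 and 644 to 15.1 and 17.8. The other 5 were Arap3, I830012O16Rik, Gpr176, 9930013L23Rik and Ankrd1, at log2 fold changes of -5.68 to -5.30 apart from -5.90 for Arap3.

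**Figure D1:**
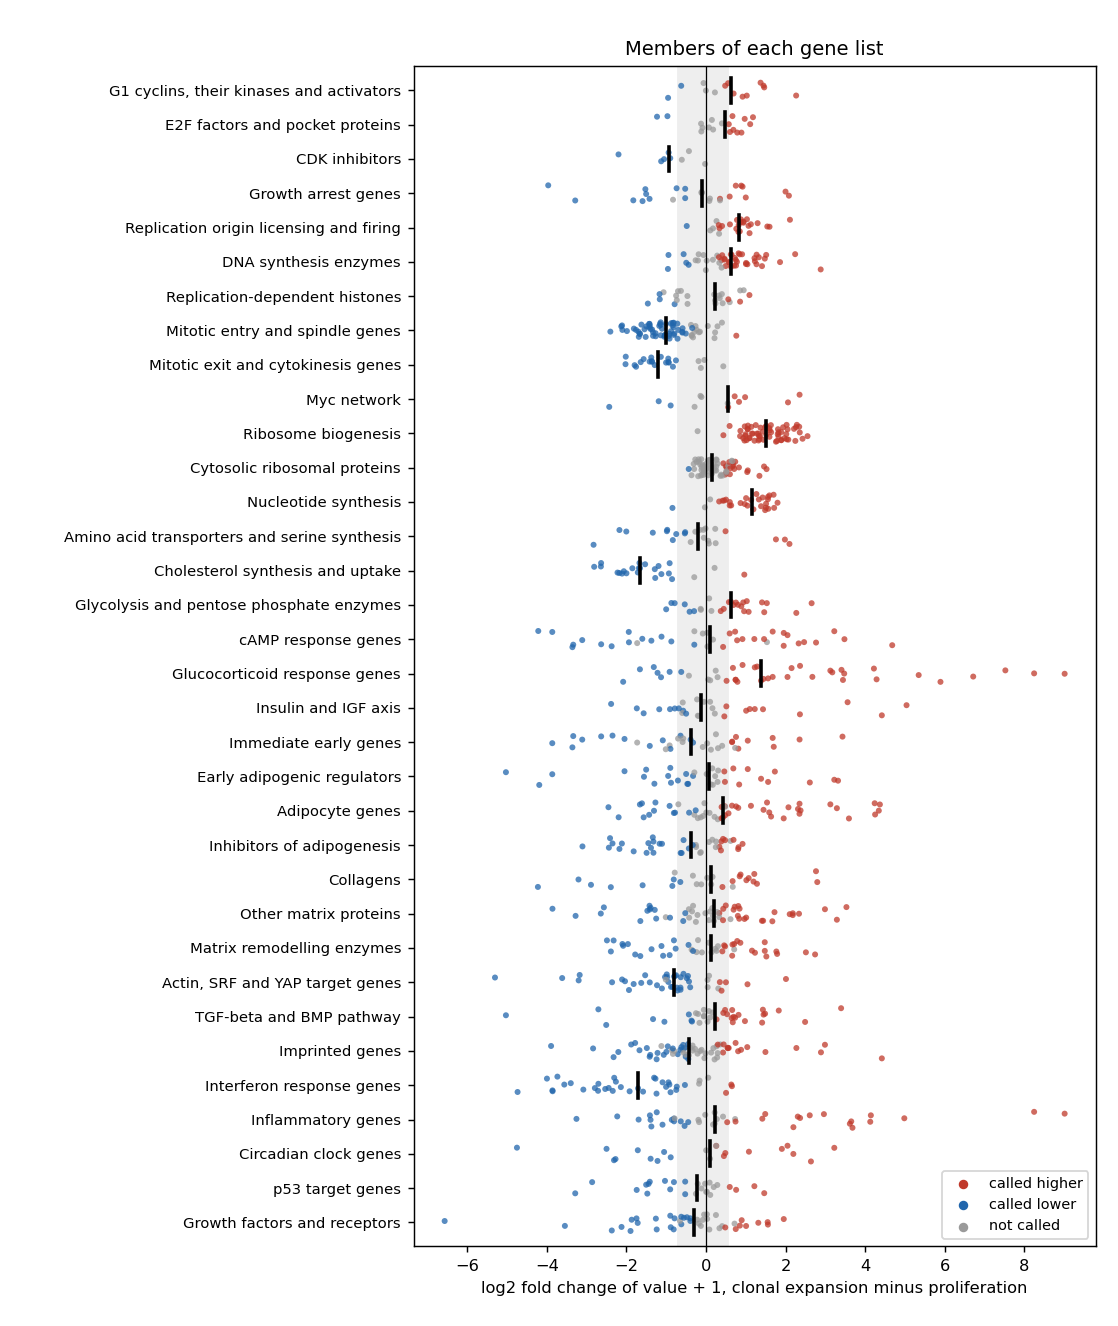
Log2 fold change of value + 1 (horizontal axis, clonal expansion minus proliferation) of each tested member of 34 gene lists, with a short black bar at each list's median. The grey band spans the middle 50% of all genes tested (-0.71 to 0.56) and the thin line is their median. Replication, ribosome biogenesis and nucleotide genes lie mostly to its right, and mitotic, cholesterol, actin and interferon genes mostly to its left.

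Most genes that start DNA replication were higher at clonal expansion than in exponentially growing cells. Of the genes that license and fire replication origins, 21 of 26 (80.8%) were higher and 1 lower, with a median log2 fold change of 0.84 against 0.0029 over all genes. Cdc6, which loads the replicative helicase, stood at 2034 and 3025 at proliferation and 10474 and 10952 at clonal expansion, a log2 fold change of 2.11 ± 0.18 (SE, adjusted p = 5.62e-06). Cdt1, its partner in loading, stood at 4217 and 5643 at proliferation and 12181 and 11795 at clonal expansion (1.30 ± 0.16 SE, adjusted p = 6.57e-05). Quiescent cells were at 881 and 839 for Cdc6 and 2276 and 1923 for Cdt1, below both cycling states. Origin recognition subunits Orc1 (1.54) and Orc2 (1.597) rose, as did the helicase subunits Mcm2 (1.09), Mcm3 (1.13) and Mcm5 (1.07). Dbf4, the activator of the Cdc7 kinase, was the lower gene, at -0.48 ± 0.19 (SE, adjusted p = 0.0453), and it was not called with any 1 of 5 libraries left out: proliferation replicate 2 (-0.18), either clonal expansion replicate (-0.58 and -0.39) or either differentiation replicate (-0.48 for each).

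The promoters of these genes were searched for the motif that E2F factors bind. The letters TTTGGCGC or TTTCGCGC were sought on both strands in RefSeq windows from 250 bases before to 50 after each start site (build GRCm38.p6). They were present in 7 of 25 (28%) windows of the licensing genes and 7 of 46 (15.2%) of the DNA synthesis genes, against 1.41% of the 14481 windows of all genes tested. Lists that mostly fell held them too, in 5 of 61 (8.2%) windows for mitotic entry, 1 of 24 (4.17%) for mitotic exit and 2 of 35 (5.71%) for interferon response. Ribosome biogenesis genes held them in 1 of 64 (1.56%). Stretches of 2 licensing promoters, from RefSeq, are shown to place the motif in lower case on the gene's strand with the motif in capitals, Orc1 at chr4:108579367-108579483 (plus strand) and Mcm5 at chr8:75109300-75109427 (plus strand), where matches on both strands overlap. A match is a description of the letters, and no binding was measured.

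Orc1: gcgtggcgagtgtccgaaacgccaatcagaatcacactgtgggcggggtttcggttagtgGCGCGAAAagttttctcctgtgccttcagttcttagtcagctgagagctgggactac
Mcm5: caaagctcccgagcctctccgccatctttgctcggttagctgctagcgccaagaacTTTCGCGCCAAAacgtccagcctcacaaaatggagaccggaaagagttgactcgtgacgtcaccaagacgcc

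The G1 and S regulators upstream were higher in part. Of 14 G1 cyclins, their kinases and activators, 9 (64.3%) were higher and 2 lower (median 0.62). Ccne2, cyclin E2, stood at 747 and 1274 at proliferation and 4655 and 4734 at clonal expansion, a log2 fold change of 2.27 ± 0.21 (SE, adjusted p = 1e-05), with quiescence at 453 and 461. Ccne1 rose by 1.37 ± 0.17 (SE, adjusted p = 8.07e-05) and Ccnd3, cyclin D3, by 1.45 ± 0.12 (SE, adjusted p = 6e-06), from 18839 and 21265 to 56369 and 52772. Their kinase Cdk2 rose by 1.02 and Cdc25a, the phosphatase that activates it, by 1.46. Ccnd1, cyclin D1, rose by 0.69 ± 0.18 (SE, adjusted p = 0.00602), though without proliferation replicate 1 the value was 0.56 (adjusted p = 0.06) and with equal totals 0.42 (adjusted p = 0.0544). The D cyclin kinases and cyclin D2 were not called, at -0.002 for Cdk4 (95% interval -0.26 to 0.26), 0.22 for Cdk6 (-0.77 to 1.22) and -0.061 for Ccnd2 (-0.31 to 0.19); with equal totals Cdk4 (-0.28) and Ccnd2 (-0.34) were called lower. The members called lower were Mnat1 (-0.62), which assembles the Cdk-activating kinase, and Ccna2 (-0.95), cyclin A2, which serves S phase and mitosis alike.

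Several inhibitors of this step were lower. Of the 8 CDK inhibitors tested, 5 (62.5%) fell and 0 rose (median -0.92). Cdkn1b, p27, stood at 12543 and 12152 at proliferation and 5782 and 6117 at clonal expansion, a log2 fold change of -1.05 ± 0.10 (SE, adjusted p = 1.04e-05), and at 12096 and 13694 at quiescence. Cdkn2a fell by 1.13 ± 0.12 (SE, adjusted p = 1.87e-05), and Cdkn2b, p15 (-0.94), and Cdkn2c, p18 (-0.90), fell as well. Cdkn3, a phosphatase that acts on Cdk2 and Cdk1, fell by 2.20 ± 0.24 (SE, adjusted p = 2.8e-05). Cdkn1a, p21, was not called, at 36838 and 36385 at proliferation and 39937 and 32568 at clonal expansion (-0.022, 95% interval -0.30 to 0.26), and was called lower with equal totals (-0.30). Cdkn1c, p57, was at 1.04 and 0.916 at proliferation and about 0 and 1.15 at clonal expansion, too low for a comparison, and at 25.4 and 26.3 at quiescence. Of 18 E2F factors and pocket proteins, 9 (50%) were higher and 2 lower. E2f1 (0.69), E2f2 (1.11) and E2f3 (0.89), the activators, rose, and so did Tfdp1 (1.18), their DNA-binding partner. The lower members were the pocket proteins Rb1, from 2523 and 2444 to 1036 and 1079 (-1.23 ± 0.12 SE, adjusted p = 1.66e-05), and Rbl2, p130, from 8838 and 8227 to 4251 and 4463 (-0.97 ± 0.11 SE, adjusted p = 3.65e-05). Rbl1, p107, was not called (-0.088, 95% interval -0.46 to 0.28).

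Among the DNA synthesis enzymes, 33 of 48 (68.8%) were higher and 5 lower (median 0.63). Rrm2, the ribonucleotide reductase subunit that limits the supply of deoxynucleotides, stood at 11169 and 18654 at proliferation and 70532 and 66055 at clonal expansion, a log2 fold change of 2.24 ± 0.20 (SE, adjusted p = 7.35e-06), and at 4693 and 4069.9 at quiescence. Ung, which removes uracil from DNA, stood at 649 and 956 at proliferation and 5729 and 5908 at clonal expansion (2.88 ± 0.21 SE, adjusted p = 2.61e-06). Pcna, the sliding clamp, rose by 1.33, the nuclease Dna2 by 1.86, Rpa2, a single-strand binding subunit, by 1.51, and Nasp, a histone chaperone, by 1.48. The lower members were Tk1, thymidine kinase, from 6201 and 9359.7 to 4225 and 3716 (-0.94 ± 0.21 SE, adjusted p = 0.00285), Fancd2 (-0.96), of crosslink repair, Rpa3 (-0.56), Lig1 (-0.50), DNA ligase 1, and Brca2 (-0.44). Without proliferation replicate 2 or clonal expansion replicate 2 the lower count was 3: Lig1 (-0.29) and Brca2 (-0.32) lost the call without the former, and Rpa3 (-0.43) and Brca2 (-0.49) without the latter, while Brca2 also lost it without clonal expansion replicate 1 (-0.38) or either differentiation replicate, and was at -0.15 and not called with the length and GC trend removed. With equal totals 9 were lower. Of 24 replication-dependent histone genes, 3 were higher and 4 lower, with 1 higher without clonal expansion replicate 1 and 2 lower without proliferation replicate 2. These messages lack poly(A) tails and their near-identical copies share reads, so they are uncertain.

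The genes of mitosis went the other way. Of 70 mitotic entry and spindle genes, 55 (78.6%) were lower at clonal expansion, 36 of them by at least 2-fold, and 1 was higher (median -1.02). Of 22 genes of mitotic exit and cytokinesis, 18 (81.8%) were lower and 0 higher (median -1.21). Ccnb2, cyclin B2, stood at 4399.8 and 6110.4 at proliferation and 1203 and 797 at clonal expansion, a log2 fold change of -2.40 ± 0.23 (SE, adjusted p = 1.41e-05), and at 2337 and 1634 at quiescence. Kif23, a kinesin of the central spindle, stood at 8266 and 11552 at proliferation and 2527 and 1974 at clonal expansion (-2.13 ± 0.20 SE, adjusted p = 9.49e-06), and at 4020.4 and 3001 at quiescence. Both clonal expansion values lay below both quiescence values for Ccnb2 and Kif23, but the sums over the lists went the other way. The summed pseudo-counts of the mitotic entry genes were 258339 and 235521 at quiescence and 368846 and 336158 at clonal expansion. Those of the mitotic exit genes were 68551 and 61146 at quiescence and 77390 and 72393 at clonal expansion. Bub1b, of the spindle checkpoint (-1.99), Cenpf, a kinetochore protein (-2.10), Aspm, of the spindle pole (-2.11), Anln, a scaffold of the cleavage furrow (-2.02), and Pttg1, securin (-2.02), fell by similar amounts. Plk1, a kinase of mitotic entry, fell by 1.67 ± 0.20 (SE, adjusted p = 5.47e-05), and Cdc20, which activates the anaphase-promoting complex, fell too (-1.42). Foxm1, a factor that drives many of these genes, fell from 12317 and 17392 to 6811 and 6493 (-1.14 ± 0.15 SE, adjusted p = 8.65e-05). Mybl2, which encodes B-Myb, was higher, at 0.79 ± 0.18 (SE, adjusted p = 0.00377; 0.51 with equal totals). Lin54, a subunit of MuvB, was higher too, at 0.97 ± 0.17 (SE, adjusted p = 0.000629). Proliferation replicate 2 was the higher of its pair for Ccnb2, Kif23 and Foxm1, and without it 49 mitotic entry and 17 mitotic exit genes were called lower.

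Mki67, the gene of the proliferation marker Ki-67, stood at 37134 and 51212 at proliferation and 14629 and 12322 at clonal expansion, a log2 fold change of -1.70 ± 0.16 (SE, adjusted p = 1.21e-05). Its quiescence values were 14127 and 14537, so both clonal expansion libraries were nearer to the quiescent than to the growing cells by this marker, while by Cdc6 and Rrm2 they exceeded the growing cells. Cdk1, the mitotic kinase itself, was not called: it stood at 9015 and 13122 at proliferation and 9560.4 and 8588 at clonal expansion (-0.26, 95% interval -0.68 to 0.15), and the groups overlapped. Without proliferation replicate 1 it was called lower (-0.53), as it was with equal totals (-0.54), and without replicate 2 it was at 0.007. Top2a, the topoisomerase that untangles replicated DNA, was the one mitotic gene called higher, from 28904 and 42226 to 62427 and 56193 (0.76 ± 0.16 SE, adjusted p = 0.0023; 0.49 without proliferation replicate 1). With proliferation replicate 2 left out 3 mitotic entry genes and 1 of mitotic exit were called higher, and with either quiescence replicate left out 2 and 1. Aurkb, a kinase of chromosome segregation, fell by 0.70 and was not called without proliferation replicate 2 (-0.43).

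The letters TTTGAA, the core of the cell cycle homology region (CHR) that MuvB binds, were in 36 of 61 (59%) promoter windows of the mitotic entry genes and 15 of 24 (62.5%) of the mitotic exit genes, against 12.3% of all windows. The CCAAT box was in 47 of 61 (77%) and 16 of 24 (66.7%), against 37.8%. Licensing genes held TTTGAA in 6 of 25 (24%) windows and the CCAAT box in 15 (60%). DNA synthesis genes held TTTGAA in 4 of 46 (8.7%) and the CCAAT box in 24 (52.2%). Stretches with both letters, from RefSeq, are shown for Ccnb2 (chr9:70421525-70421610, minus strand) and Kif23 (chr9:61946770-61946857, minus strand), with TTTGAA in capitals.

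Ccnb2: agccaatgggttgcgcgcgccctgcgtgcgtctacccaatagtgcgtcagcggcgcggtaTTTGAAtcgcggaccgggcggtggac
Kif23: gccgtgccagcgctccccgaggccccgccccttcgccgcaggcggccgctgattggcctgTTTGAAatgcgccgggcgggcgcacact

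**Figure D2:**
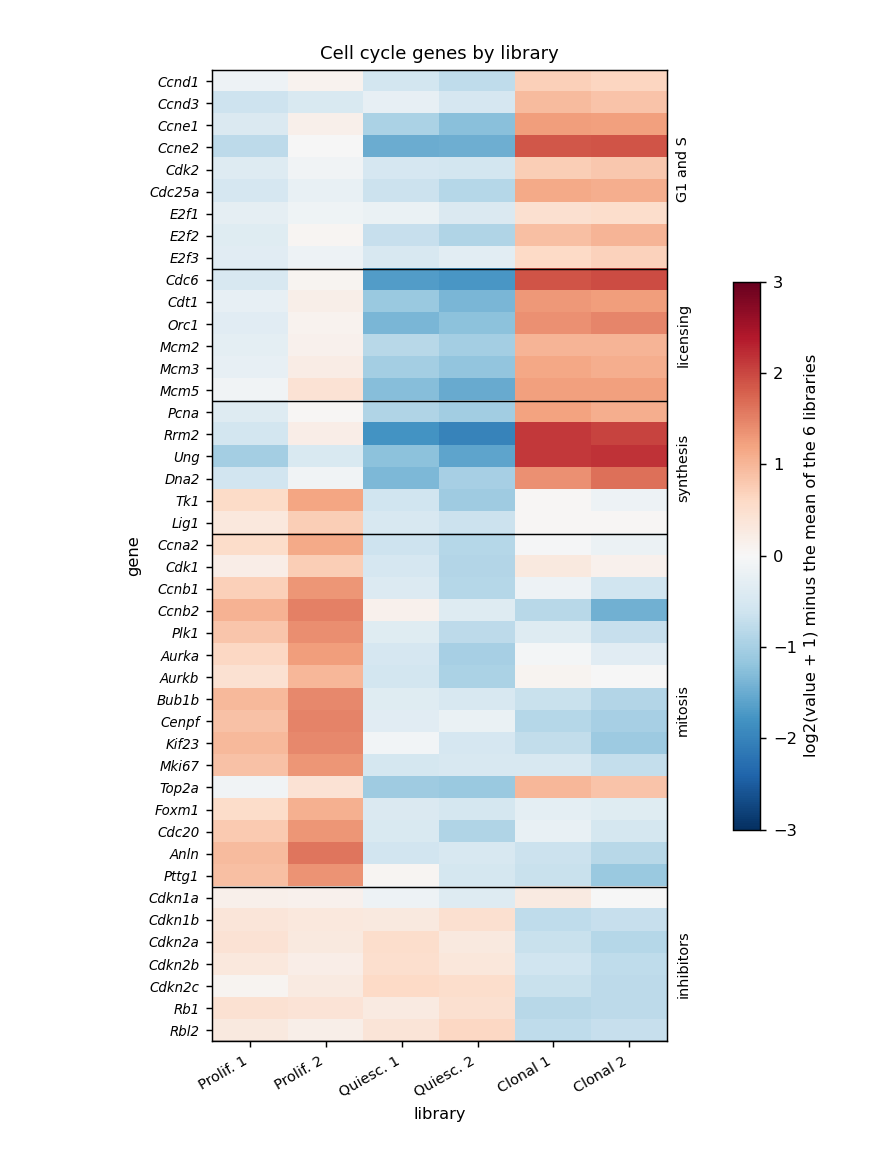
Heat map of cell cycle genes (rows) in the 2 libraries each of proliferation, quiescence and clonal expansion (columns), coloured by log2(value + 1) minus the mean of the 6 libraries. Rows from Ccnd1 to Dna2 are red (high) in the clonal expansion columns, most rows of mitosis are red in the proliferation columns, and the inhibitors Cdkn1b to Rbl2 are blue (low) at clonal expansion.

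Ribosome biogenesis genes were higher in nearly every case. Of 62 ribosome biogenesis genes, 61 (98.4%) were higher, 52 by at least 2-fold, and 0 lower, with a median of 1.503; with equal totals or quantile normalization 1 was lower. Nop56, a core protein of the particles that methylate ribosomal RNA, stood at 11417 and 15659 at proliferation and 71793 and 65334 at clonal expansion, a log2 fold change of 2.36 ± 0.16 (SE, adjusted p = 1.52e-06), and at 8422 and 7564 at quiescence. Rrp1b, a nucleolar processing factor, rose by 2.55 ± 0.11 (SE, adjusted p = 1.64e-07), Rrp12 by 2.43, Rrp9 by 2.34 and Nolc1, a nucleolar chaperone, by 2.28. Ncl, nucleolin, stood at 75089 and 104256 at proliferation and 330466 and 325687 at clonal expansion (1.89), and Npm1, nucleophosmin, rose by 0.99. Both clonal expansion libraries exceeded both proliferation libraries for each of these genes. Over all 14647 genes tested, the groups did not overlap, in either direction, for 12443. Myc, which drives this programme in many cells, stood at 4695 and 7908 at proliferation and 31529 and 30707 at clonal expansion, a log2 fold change of 2.35 ± 0.20 (SE, adjusted p = 5.65e-06), with quiescence at 3062 and 2794. In the Myc network 6 of 13 genes were higher and 3 lower: its partner Max rose by 0.72, and the Myc antagonists Mxd4 (-0.89) and Mxd3 (-1.19) and the paralog Mycl1 (-2.43) fell, with Mxd1 higher (0.98). The E-box CACGTG, the sequence that Myc and Max bind, was in 11 of 64 (17.2%) promoter windows of the ribosome biogenesis genes and 9.47% of all windows. It was in 7 of 46 (15.2%) windows of the DNA synthesis genes and 3 of 24 (12.5%) of the mitotic exit genes. It was rarer in licensing (4%), mitotic entry (3.28%) and interferon response (2.86%) windows. It is shown in capitals in the promoter of Nop2, a ribosomal RNA methyltransferase gene that was also called higher and was chosen after its values were seen (chr6:125131763-125131888, plus strand).

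Nop2: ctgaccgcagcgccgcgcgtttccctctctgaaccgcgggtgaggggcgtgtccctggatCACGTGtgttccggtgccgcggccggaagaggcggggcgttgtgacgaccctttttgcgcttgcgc

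Of 30 nucleotide synthesis genes, 27 (90%) were higher and 1 lower (median 1.16). Ppat, the first enzyme of purine synthesis, stood at 3894 and 5312 at proliferation and 15373 and 16277 at clonal expansion, a log2 fold change of 1.798 ± 0.15 (SE, adjusted p = 5.79e-06). Uck2, of pyrimidine salvage, rose by 1.71, Prps1, which makes the ribose donor, by 1.70, Dhodh, of pyrimidine synthesis, by 1.59 and Ctps, CTP synthase, by 1.57. Its paralog Ctps2 was the lower member (-0.84 ± 0.10 SE, adjusted p = 5.67e-05). Of the cytosolic ribosomal proteins, 19 of 75 (25.3%) were higher and 1 lower (median 0.15), and the balance turned with the scaling, to 7 higher and 16 lower with equal totals. Without proliferation replicate 1, 10 were higher; 0 were lower without either proliferation replicate or clonal expansion replicate 2, and 3 without either quiescence replicate. The largest rises, such as Rpl29 (1.52) and Rpl34 (1.46), were in genes with low values that share reads with many processed copies, and are uncertain.

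Genes of sugar and sterol metabolism differed in direction. Of 27 genes of glycolysis and the pentose phosphate pathway, 17 (63%) were higher and 6 lower (median 0.63). Hk2, hexokinase 2, stood at 4283 and 5174 at proliferation and 23079.7 and 22333 at clonal expansion, a log2 fold change of 2.27 ± 0.12 (SE, adjusted p = 3.83e-07). Slc16a1, the lactate transporter MCT1, rose by 2.65 ± 0.12 (SE, adjusted p = 1.71e-07), Pfkl, a phosphofructokinase, by 1.53 and Ldha, lactate dehydrogenase, by 1.41. The lower members included Gpd2 (-0.87), a glycerol phosphate shuttle enzyme and Pfkm (-0.53), the muscle-type phosphofructokinase; the lower count was 3 with either proliferation replicate or clonal expansion replicate 2 left out. Cholesterol genes were lower nearly throughout: of 24, 21 (87.5%) fell, 18 by at least 2-fold, and 1 rose (median -1.67; 2 rose with either quiescence replicate left out). Fdft1, squalene synthase, stood at 13326 and 13271 at proliferation and 2127 and 1686 at clonal expansion, a log2 fold change of -2.81 ± 0.15 (SE, adjusted p = 4.93e-07). Sc4mol, a sterol demethylase (-2.64), Fdps, farnesyl diphosphate synthase (-2.64), and Insig1, the sterol sensor that retains SREBP (-2.18), fell with it. For Fdft1 and Fdps, quiescent cells lay between the cycling states, at 4777 and 3758 for Fdft1 and 5347 and 4328 for Fdps. By the summed pseudo-counts of the list they were the lowest, at 127783 and 115812. The sums were 345682 and 343989 at proliferation and 143107 and 131120 at clonal expansion. Pmvk, phosphomevalonate kinase, was the higher member (0.96 ± 0.12 SE, adjusted p = 5.73e-05).

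Of 24 genes of amino acid transport, serine synthesis and the linked stress response, 4 were higher and 10 (41.7%) lower (median -0.21). The glutamine transporter Slc1a5 stood at 15921 and 15701 at proliferation and 71863 and 63778 at clonal expansion, a log2 fold change of 2.10 ± 0.12 (SE, adjusted p = 7.06e-07), and Slc7a6, a cationic amino acid exchanger, rose by 1.98. Lower were stress response genes that ATF4 turns on: Chac1, a glutathione-degrading enzyme, from 4038 and 4968 to 618 and 643 (-2.83 ± 0.25 SE, adjusted p = 7.27e-06), Trib3, a pseudokinase (-2.18), and Ddit3, CHOP (-1.34). The glycine transporter Slc6a9 fell by 2.00.

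**Figure D3:**
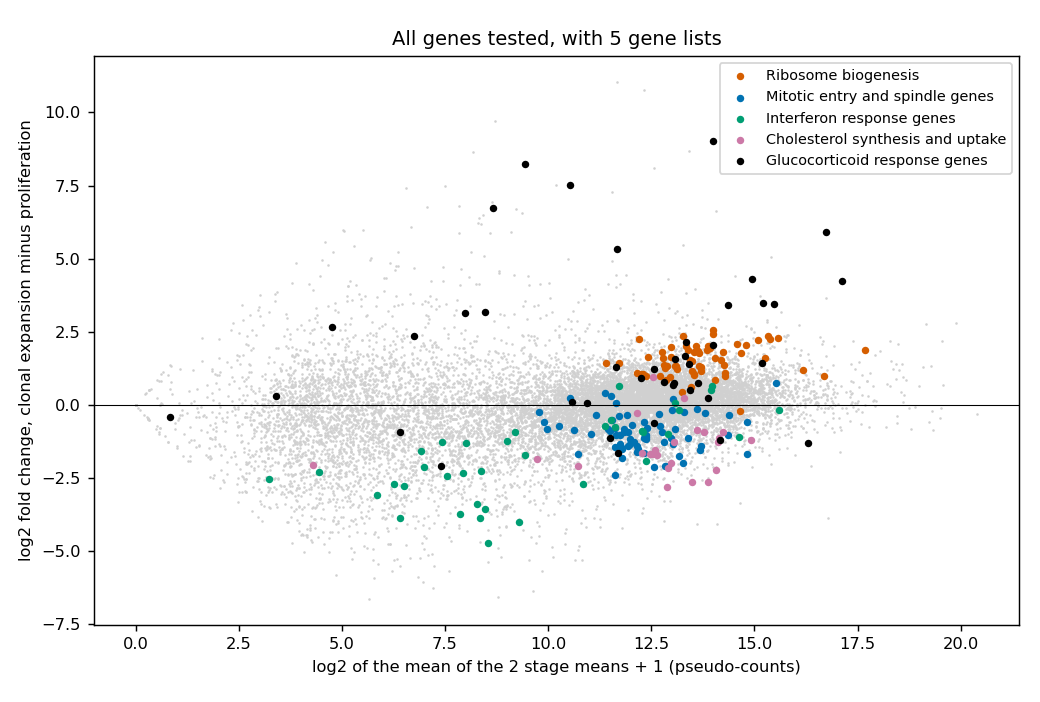
Log2 fold change (vertical axis, clonal expansion minus proliferation) against log2 of the mean of the 2 stage means + 1 (horizontal axis, pseudo-counts) for all 14647 genes tested (grey), with 5 gene lists coloured. Ribosome biogenesis genes sit above 0 and mitotic and cholesterol genes below it at high values, interferon genes fall further at lower values, and glucocorticoid genes hold several of the largest rises.

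Genes known to answer glucocorticoids were higher in most cases. Of 41, 29 (70.7%) rose, 23 by at least 2-fold, and 7 fell (median 1.38). Lcn2, lipocalin 2, an acute phase protein that binds bacterial siderophores, stood at 55.8 and 68.6 at proliferation and 35998 and 29375 at clonal expansion, a log2 fold change of 9.02 ± 0.17 (SE, adjusted p = 3.09e-09). Mt2, a metallothionein, stood at 3781 and 3491 at proliferation and 220129 and 212264 at clonal expansion (5.89 ± 0.14 SE, adjusted p = 1.32e-08), and its neighbour Mt1 at 15536 and 13447 at proliferation and 268621 and 270434 at clonal expansion (4.22 ± 0.14 SE, adjusted p = 5.56e-08). The groups were far apart in each. Fkbp5, a co-chaperone of the glucocorticoid receptor, rose from 7563 and 7856 to 85567 and 82102 (3.44 ± 0.10 SE, adjusted p = 2.16e-08). Tsc22d3, the anti-inflammatory factor GILZ, rose by 3.47, Klf9 by 1.38 and the small G protein gene Rasd1 from 3.17 and 12.6 to 879.6 and 709. Saa3, serum amyloid A3, rose from 2.68 and 4.61 to 1514 and 1257 and Fam107a, an actin-associated stress gene, from 15.2 and 14.7 to 2897 and 2980.2. Quiescent cells were near the proliferating ones for Mt2 (3883 and 3181) and Fkbp5 (5688 and 5563). Lower were the receptor gene itself, Nr3c1, from 26342 and 25163 to 10887 and 11247 (-1.22 ± 0.16 SE, adjusted p = 9.81e-05), and Timp4 (-2.08), Lpin1 (-1.66), Anxa1 (-1.31) and Pdk4 (-1.13).

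The cAMP response genes divided. Of 38, 17 (44.7%) were higher and 14 (36.8%) lower, most of both by at least 2-fold (12 and 12), with a median of 0.11. Rgs2, which restrains G protein signalling, stood at 2538 and 2361 at proliferation and 30029 and 24850.0 at clonal expansion, a log2 fold change of 3.48 ± 0.11 (SE, adjusted p = 5.31e-08). Nfil3, a basic leucine zipper factor, rose by 3.23 ± 0.11 (SE, adjusted p = 5.31e-08) and the orphan nuclear receptor Nr4a3 from 5.22 and 9.31 to 215 and 194 (4.68). Among the genes of phosphodiesterases, which break down cyclic nucleotides, the following rose: Pde4b by 2.33 ± 0.15 (SE, adjusted p = 1.41e-06), Pde4d by 1.46, Pde10a by 2.77 and Pde7b by 2.47. Pde1b, given above among the largest changes, fell. Crem, an inducible modulator of the response, rose by 0.78 (0.51 with equal totals). Nr4a1 stood at 2463 and 16853 at proliferation and 18477 and 18799 at clonal expansion and was not called (1.53 ± 0.63 SE, adjusted p = 0.056); the proliferation libraries differed, and it was at 0.14 without replicate 1 and 2.92, and called, without replicate 2. With all libraries kept it was called with a replicate block (1.53, adjusted p = 0.0325) or with the length and GC trend removed (1.67, adjusted p = 0.0468). Vip, a neuropeptide gene, fell from 150.0 and 263 to 11.3 and 8.33, with quiescence at 4.64 and 4.62. Egr1, Egr2, Egr3 and Fosb also fell. They are on this list and on that of the immediate early genes, so their falls count in both. Proliferation replicate 2 was the higher proliferation library for each of them.

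The immediate early genes that serum turns on moved in both directions, at shares not far from the background. Of 35, 9 were higher, 13 lower and 13 not called (median -0.39). Egr1 stood at 16082 and 80363 at proliferation and 3324 and 3698 at clonal expansion, a log2 fold change of -3.36 ± 0.53 (SE, adjusted p = 0.000348). Egr2 stood at 785 and 7662 at proliferation and 165 and 169.9 at clonal expansion (-3.86 ± 0.78 SE, adjusted p = 0.0015) and Fosb, an AP-1 subunit, at 529 and 2203 at proliferation and 113 and 99.0 at clonal expansion (-3.34). Proliferation replicate 2 was the higher library for all 3, and without it the falls were -2.20, -2.22 and -2.31, each still called. Fosl1, the AP-1 subunit Fra-1, went the other way, from 788 and 1427 to 11469.8 and 11426 (3.43 ± 0.31 SE, adjusted p = 8.77e-06), with quiescence at 392.27 and 363. Dusp1, a phosphatase of MAP kinases, rose by 1.68 ± 0.43 (SE, adjusted p = 0.006), between 0.76 without proliferation replicate 1 and 2.59 without replicate 2. Fosl2 (1.05) and Maff (1.70) rose, and Atf3 fell (-2.63).

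Clock genes were called in both directions alike, 9 higher and 9 lower of 21 (42.9% each). The repressors Per1, from 6173 and 6508 to 24724 and 27829 (2.05 ± 0.11 SE, adjusted p = 3.7e-07), Per2 (1.91) and Cry1 (2.64) rose. Per3, from 6629 and 6075 to 1063 and 1182 (-2.50 ± 0.13 SE, adjusted p = 4.09e-07), and the output factor Dbp (-2.31) fell, as did the nuclear receptor Nr1d2 (-2.27). The period family thus held members that moved in opposite directions, and each kept its direction and its call with equal totals.

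In the insulin and IGF axis, 10 of 28 genes were higher and 9 lower, close to the background shares (median -0.12). Genes of a ligand and of several binding proteins rose. Igf2, insulin-like growth factor 2, stood at 2295 and 1919 at proliferation and 40685 and 49681 at clonal expansion, a log2 fold change of 4.42 ± 0.18 (SE, adjusted p = 1.38e-07), and at 54325 and 70440.4 at quiescence. Igfbp4, a binding protein, stood at 3218 and 1992 at proliferation and 87589.7 and 79365 at clonal expansion (5.04 ± 0.18 SE, adjusted p = 8.03e-08) and at 60793 and 55734 at quiescence. Igfbp5 rose by 3.56 and Igfbp3 by 1.43, and Igfbp2 was low, at 3.08 and about 0 at proliferation and 10.4 and 8.45 at clonal expansion. Igf1 fell, from 8247 and 7551 to 3907 and 3127 (-1.18 ± 0.13 SE, adjusted p = 3.15e-05), with quiescence at 24498 and 28965. Of the receptor substrates, Irs1 fell from 19624 and 18555 to 3450.5 and 3868 (-2.38 ± 0.17 SE, adjusted p = 1.83e-06) and Irs2 rose from 3790.2 and 3425 to 7655 and 9287 (1.23 ± 0.18 SE, adjusted p = 0.000181). Igf1r, the receptor, was not called (-0.18, 95% interval -0.52 to 0.16), and with equal totals it was called lower (-0.46).

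The early regulators of fat cell formation divided, with 11 of 34 (32.4%) higher and 15 (44.1%) lower (median 0.067). Cebpb, the leucine zipper factor that acts early in adipogenesis, stood at 4032 and 3996 at proliferation and 27886 and 21541 at clonal expansion, a log2 fold change of 2.61 ± 0.16 (SE, adjusted p = 8.36e-07). Cebpd stood at 4110.3 and 4629 at proliferation and 13804 and 12002 at clonal expansion (1.56 ± 0.14 SE, adjusted p = 9.02e-06) and Klf5, another early factor, at 561 and 689 at proliferation and 5635 and 6852 at clonal expansion (3.32 ± 0.17 SE, adjusted p = 3.5e-07). Xbp1, of the unfolded protein response, rose by 1.73. The later factors were not called: Pparg stood at 5456 and 4685 at proliferation and 5392 and 4295 at clonal expansion (-0.071, 95% interval -0.36 to 0.22) and Cebpa at 2150.2 and 1604 at proliferation and 2577 and 2018 at clonal expansion (0.30, -0.069 to 0.66), and the groups of each overlapped. Pparg was called lower with equal totals (-0.35), and Cebpa was called higher without proliferation replicate 1 (0.51) and, with all libraries, with the length and GC trend removed (0.36). Lower were Zfp467 (-4.19), a zinc finger factor that favours fat cells, Klf6 (-2.05) and Zfp423 (-1.56), a factor of preadipocyte commitment. Bmp4, a growth factor of that commitment, was at 32.1 and 31.2 at proliferation and listed at about 0 in both clonal expansion libraries. Klf4 stood at 9576 and 9439 at proliferation and 8224 and 7003 at clonal expansion (-0.33 ± 0.10 SE, adjusted p = 0.0186), and was not called with either proliferation replicate (-0.32 and -0.34) or clonal expansion replicate 2 (-0.21) left out, or with the length and GC trend removed (-0.17).

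Genes of the mature fat cell were higher in 27 of 51 (52.9%) cases and lower in 13 (median 0.43), with 8 lower when proliferation replicate 2 was left out. Adipoq, adiponectin, stood at 42.3 and 25.7 at proliferation and 397 and 422 at clonal expansion, a log2 fold change of 3.59 ± 0.21 (SE, adjusted p = 6.53e-07), and at 910.2 and 744 at quiescence and 485712 and 532404 at differentiation. Cfd, adipsin, stood at 19.6 and 8.82 at proliferation and 266 and 273 at clonal expansion (4.25 ± 0.36 SE, adjusted p = 6.41e-06), with 415 and 198 at quiescence. Cidec, a lipid droplet protein, stood at 35.0 and 16.3 at proliferation and 509 and 522 at clonal expansion (4.37 ± 0.29 SE, adjusted p = 1.4e-06), with 353 and 262 at quiescence. The clonal expansion values of Adipoq lay below those of quiescent cells and those of Cidec above them. Car3 rose from 13.7 and 1.23 to 86.4 and 154. Lower were the fatty acid transporter gene Slc27a1 (-2.45), the droplet protein Plin2, from 15983 and 13903 to 3549 and 2981 (-2.20 ± 0.13 SE, adjusted p = 7.55e-07), Fabp5 (-1.61) and the glucose transporter Slc2a4 (-1.57). Of 38 genes that restrain adipogenesis, 20 (52.6%) were lower and 9 higher (median -0.38; 4 higher without proliferation replicate 1 or clonal expansion replicate 1, and 3 with equal totals). Gata3 stood at 1130.1 and 1299 at proliferation and 139 and 140.4 at clonal expansion, a log2 fold change of -3.10 ± 0.18 (SE, adjusted p = 5.87e-07). The zinc finger factors Klf2 (-2.35) and Klf7 (-2.41) and the secreted stress factor Gdf15 (-2.44) fell. Id1, which blocks basic helix-loop-helix factors, and Wnt5a rose, by 0.82 and 0.81. Dlk1, the preadipocyte surface protein, is described with the imprinted genes.

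**Figure D4:**
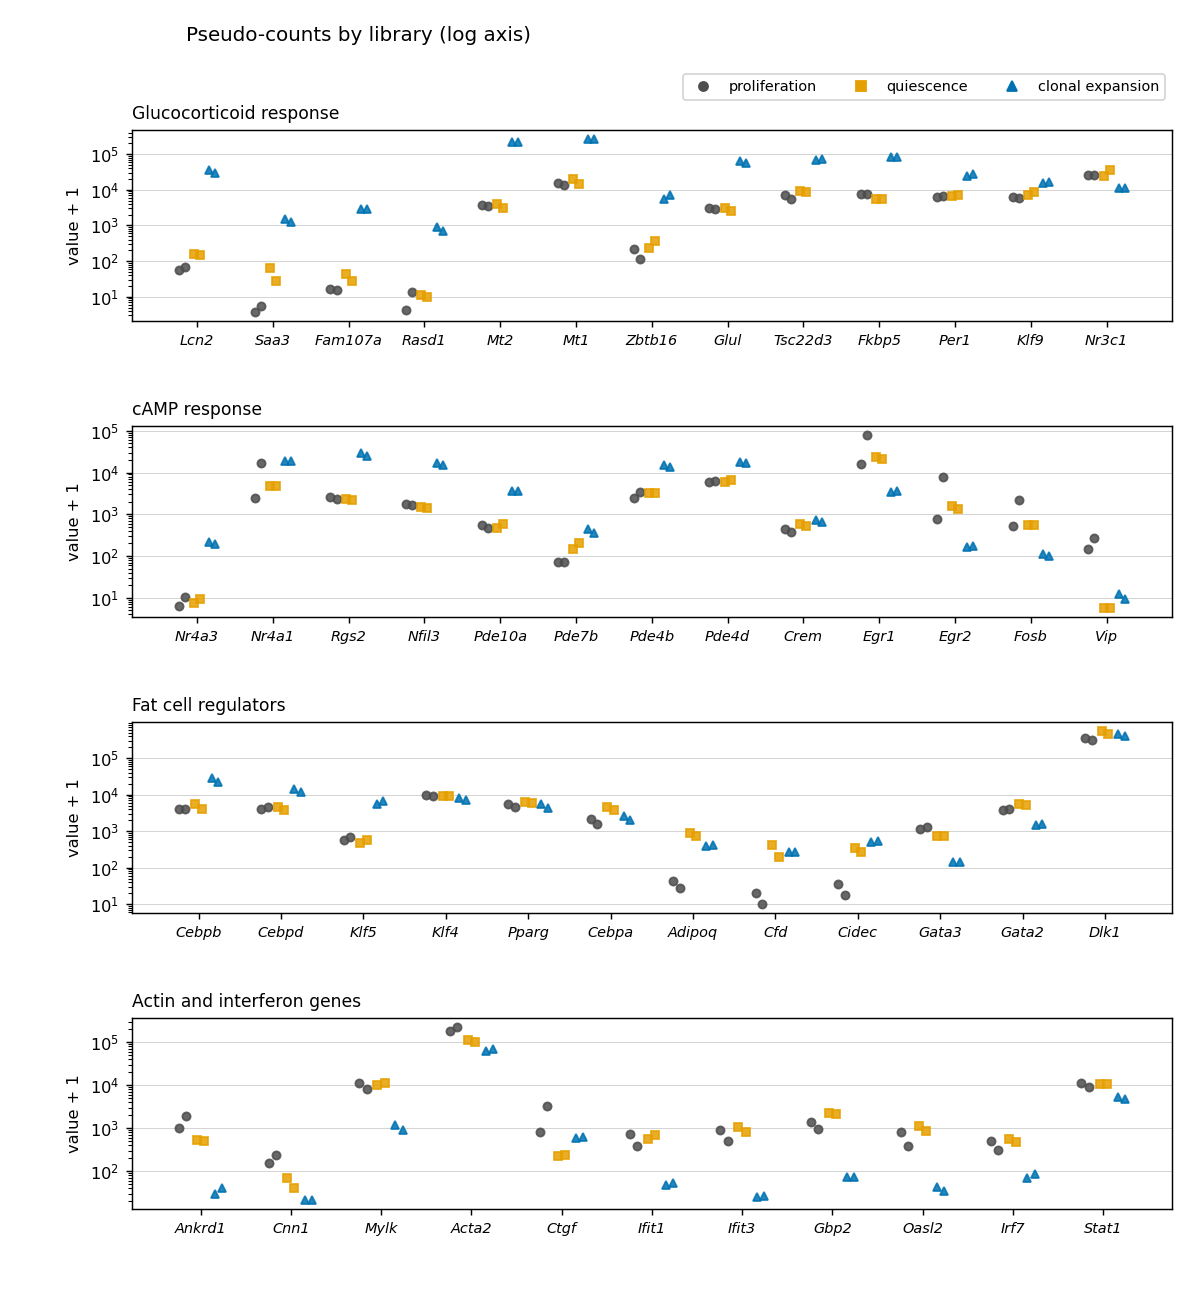
Pseudo-count + 1 (log axis) of single genes in each proliferation, quiescence and clonal expansion library, in 4 panels by gene group. Clonal expansion triangles stand far above the other symbols for Lcn2, Mt1, Mt2 and Fkbp5 and below them for Gata3, Mylk, Ifit3 and Gbp2, and the 2 proliferation circles lie apart for Egr1, Egr2, Fosb and Nr4a1.

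Genes of the actin cytoskeleton and targets of the factors SRF and YAP were lower in 33 of 43 (76.7%) cases and higher in 5 (median -0.80); 3 were higher without proliferation replicate 1 and 2 with equal totals. Ankrd1, a YAP target, stood at 1001 and 1890.3 at proliferation and 29.0 and 39.4 at clonal expansion, a log2 fold change of -5.30 ± 0.34 (SE, adjusted p = 1.29e-06), and at 538 and 497 at quiescence. Mylk, myosin light chain kinase, stood at 10973 and 8299 at proliferation and 1202 and 927 at clonal expansion (-3.17 ± 0.16 SE, adjusted p = 3.14e-07), with quiescence at 10375 and 11511. Acta2, smooth muscle actin, stood at 186619 and 229035 at proliferation and 63633 and 70349 at clonal expansion (-1.63 ± 0.17 SE, adjusted p = 2.73e-05), with quiescence at 110560.3 and 98995. Both clonal expansion values lay below both quiescence values for all 3. Cnn1, calponin (-3.20), Lmod1, an actin nucleator (-3.62), and Myl9, a myosin light chain (-2.36), fell. Ctgf, a matricellular YAP target, stood at 817 and 3318 at proliferation and 598 and 639 at clonal expansion (-1.41 ± 0.51 SE, adjusted p = 0.0325): its proliferation libraries differed, the fall was -2.42 without replicate 1 and -0.40, not called, without replicate 2, and the call was lost with any clonal expansion or differentiation library left out (-1.36 and -1.46 without a clonal expansion library). Higher were Itga5, the fibronectin receptor subunit, from 47379.6 and 52329 to 208837 and 192576 (2.01 ± 0.10 SE, adjusted p = 3.37e-07), and Actn1, alpha-actinin (1.04).

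Matrix genes moved in both directions. Among 27 collagen genes 11 (40.7%) were higher and 8 (29.6%) lower. The basement membrane pair Col4a1 and Col4a2 rose together: Col4a1 stood at 247929.9 and 239681 at proliferation and 1715616 and 1672252 at clonal expansion, a log2 fold change of 2.80 ± 0.14 (SE, adjusted p = 2.94e-07), and Col4a2 rose by 2.77 ± 0.12 (SE, adjusted p = 1.88e-07). Col4a1 was the gene with the largest value in both clonal expansion libraries, at 1.13% and 1.14% of all pseudo-counts. Col6a2 rose by 1.21, Col6a3 by 1.28 and Col15a1 by 1.20. The fibrillar gene Col1a1 was not called, at 815729 and 749172 at proliferation and 736184 and 704238 at clonal expansion (-0.12, 95% interval -0.47 to 0.23), and was called lower with equal totals (-0.39). Col3a1 rose by 0.67 ± 0.18 (SE, adjusted p = 0.00854), and was not called without proliferation replicate 2 (0.52) or clonal expansion replicate 1 (0.56) or with equal totals (0.39). Another pair of type IV chains fell, Col4a5 (-1.59 ± 0.12 SE, adjusted p = 3.85e-06) and Col4a6 (-3.21), as did Col8a1, from 6178 and 7289 to 431 and 297 (-4.22 ± 0.20 SE, adjusted p = 2.78e-07).

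Of 53 other matrix proteins, 23 (43.4%) were higher and 14 lower. The small proteoglycan Lum, lumican, rose from 363 and 190.3 to 1535 and 1158 (2.34 ± 0.27 SE, adjusted p = 4.05e-05), with quiescence at 5850.0 and 6044. Mfap4, of elastic fibres, rose by 3.53, Clec3b, tetranectin, by 3.29 and Postn, periostin, by 2.18, and quiescent cells exceeded both states for each, at 6711 and 5748 for Mfap4, 17162 and 16759 for Clec3b and 890389.6 and 981138 for Postn. Thbs1, thrombospondin 1, fell from 195897 and 228214 to 16705 and 12703 (-3.86 ± 0.25 SE, adjusted p = 1.17e-06). Spp1, osteopontin (-2.57), and Nov, a matricellular protein (-3.28), fell, and Fn1, fibronectin, fell by 0.57 ± 0.15 (SE, adjusted p = 0.00693) but was not called with the length and GC trend removed (-0.32). Of 43 matrix remodelling genes 17 were higher and 16 lower: the plasminogen activators Plau (-2.39) and Plat (-2.10) fell, and Timp1, an inhibitor of metalloproteinases, rose by 1.52.

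In the TGF-beta and BMP pathway 18 of 36 genes (50%) were higher and 8 lower, or 11 and 13 with equal totals, and 5 lower without clonal expansion replicate 2. Extracellular antagonists rose: Fst, follistatin, from 9182 and 10524 to 59691 and 51140.4 (2.49 ± 0.18 SE, adjusted p = 2.08e-06), and Nog, noggin, from 74.2 and 179 to 1279 and 1169 (3.40 ± 0.34 SE, adjusted p = 1.67e-05). Another antagonist, Grem1, fell, from 23901 and 26797 to 4839 and 4092 (-2.51 ± 0.20 SE, adjusted p = 4.28e-06), as did Inhbb, an activin subunit (-2.71). The type II receptor gene Tgfbr2 rose by 1.45 ± 0.10 (SE, adjusted p = 2.29e-06). Growth factors and receptors were lower in 20 of 42 (47.6%) cases and higher in 9. Pdgfrb, the receptor for the Pdgfb product, fell from 53708 and 48802 to 13079 and 10563 (-2.12 ± 0.14 SE, adjusted p = 1.4e-06), and Nrg1, neuregulin (-1.90), fell as well. Ereg, epiregulin, an EGF receptor ligand, rose from 2656 and 5533 to 14149 and 15617 (1.96 ± 0.27 SE, adjusted p = 0.000146), Fgf10 by 1.55 and Fgfr2 by 1.31.

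Interferon response genes were lower almost throughout: 31 of 37 (83.8%) fell, 25 by at least 2-fold, and 3 rose (median -1.71). Ifit3, which blocks translation of viral RNA with its partners, stood at 919.6 and 513 at proliferation and 23.5 and 26.2 at clonal expansion, a log2 fold change of -4.74 ± 0.33 (SE, adjusted p = 1.99e-06). Gbp2, a guanylate-binding GTPase, stood at 1392 and 973 at proliferation and 73.2 and 70.7 at clonal expansion (-4.00 ± 0.20 SE, adjusted p = 3.03e-07). Oasl2, of the oligoadenylate synthetase family, stood at 837 and 376 at proliferation and 42.5 and 33.7 at clonal expansion (-3.86). Quiescent cells were at or above the proliferating ones for Gbp2 (2241 and 2181) and Oasl2 (1096 and 875), and both clonal expansion libraries were below all 4 of these values. Mx2 (-3.86) and Gbp3 (-3.73) fell likewise. The higher members were Ifi35 (0.65), H2-D1 (0.64), a class I antigen-presenting gene with near-identical relatives, and Trim25 (0.50), the last not called with equal totals (0.23). The letters TTTCNNTTTC, a short form of the interferon-stimulated response element, were in 15 of 35 (42.9%) promoter windows of this list and 3% of all windows. They are in capitals in the promoters of Ifit3 (chr19:34583347-34583476, plus strand) and Gbp2 (chr3:142620544-142620673, plus strand), 2 of the members that fell furthest.

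Ifit3: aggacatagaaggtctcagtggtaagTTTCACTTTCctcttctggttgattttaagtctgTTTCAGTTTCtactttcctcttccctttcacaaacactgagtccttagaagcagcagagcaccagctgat
Gbp2: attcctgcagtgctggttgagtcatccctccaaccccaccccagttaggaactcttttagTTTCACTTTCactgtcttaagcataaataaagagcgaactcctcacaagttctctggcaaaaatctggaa

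Inflammatory genes did not follow the interferon genes. Of 41, 17 (41.5%) were higher, 15 of them by at least 2-fold, and 14 (34.1%) lower. Lcn2 and Saa3 are on this list and on that of the glucocorticoid genes, so their rises count in both. The acute phase gene Hp, haptoglobin, stood at 101 and 64.8 at proliferation and 3831 and 1751 at clonal expansion, a log2 fold change of 4.99 ± 0.32 (SE, adjusted p = 1.14e-06). Il11, a cytokine of the interleukin 6 family, rose from 236 and 381 to 5306 and 5222 (4.13 ± 0.23 SE, adjusted p = 4.93e-07). The chemokine genes Ccl9, from 2142 and 2698 to 289.7 and 217 (-3.26 ± 0.18 SE, adjusted p = 4.89e-07), and Ccl5 (-1.69) fell, as did Tnfaip3, an inhibitor of NF-kappa B (-1.41).

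Imprinted genes are expressed from 1 parental copy in at least some tissues, and the parental copies were not told apart here. This group, the subject of the series, was higher in 15 of 64 (23.4%) cases, lower in 24 (37.5%) and not called in 25 (median -0.44). The share higher was below the background of 32.7%, and the share lower was somewhat above that of 32.1%. With equal totals 8 were higher. Plagl1, a zinc finger factor that controls growth genes, stood at 66.2 and 60.9 at proliferation and 347 and 278 at clonal expansion, a log2 fold change of 2.27 ± 0.28 (SE, adjusted p = 6.2e-05), and at 675 and 699 at quiescence. Igf2 (mm9 chr7:149836673-149846940), given above, rose by 4.42, and H19, the noncoding RNA beside it (mm9 chr7:149761437-149764051), stood at 873 and 668 at proliferation and 4733 and 6794 at clonal expansion (2.89 ± 0.26 SE, adjusted p = 8.83e-06), with 2639 and 3411 at quiescence. Dcn, decorin, a small proteoglycan, stood at 3379.7 and 2687 at proliferation and 27278 and 21011 at clonal expansion (2.99 ± 0.17 SE, adjusted p = 5.12e-07), with 50721 and 45318 at quiescence. For Igf2, Plagl1 and Dcn, clonal expansion stood between proliferation and quiescence, and for H19 above both. Igf2as, listed on the Igf2 locus, rose by 1.49, but the libraries were unstranded, so reads of the sense and antisense genes cannot be separated. Dlk1 stood at 345246 and 310009 at proliferation and 466642 and 415846 at clonal expansion (0.43 ± 0.16 SE, adjusted p = 0.0337), a small rise that was lost with any 1 proliferation or clonal expansion library left out (values 0.35 to 0.51) or with equal totals (0.15), and was called lower with quantile normalization (-0.39).

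Other imprinted genes were lower or not called. Igf2r, which clears the Igf2 product, stood at 108312 and 83409 at proliferation and 65242 and 62586 at clonal expansion (-0.57 ± 0.16 SE, adjusted p = 0.00996; -0.38, not called, without proliferation replicate 1). Peg3, a zinc finger gene, stood at 28446 and 24677 at proliferation and 11858 and 15637 at clonal expansion (-0.96 ± 0.33 SE, adjusted p = 0.0258); it was not called with either proliferation replicate (-0.86 and -1.06), clonal expansion replicate 1 (-0.76) or either differentiation replicate left out. Herc3, a ubiquitin ligase gene, fell from 3352 and 3959 to 761 and 695 (-2.32 ± 0.15 SE, adjusted p = 1.49e-06) and Cobl, an actin nucleator, from 4254 and 4708 to 871 and 1082 (-2.20 ± 0.25 SE, adjusted p = 3.98e-05). Tspan32, a tetraspanin, fell from 138 and 109 to 6.74 and 7.92. Mest, at 1072 and 713 at proliferation and 1399.8 and 821 at clonal expansion, was not called (0.29, 95% interval -0.26 to 0.85), nor was Grb10, an adaptor that restrains insulin signalling, at 884 and 513 at proliferation and 548 and 368 at clonal expansion (-0.58, -1.19 to 0.027). Mest was called higher without clonal expansion replicate 2 (0.68). Grb10 was called lower with equal totals (-0.86) and without proliferation replicate 2 (-0.97) or clonal expansion replicate 1 (-0.87), and, with all libraries kept, with a replicate block (-0.58, adjusted p = 0.0219).

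**Figure D5:**
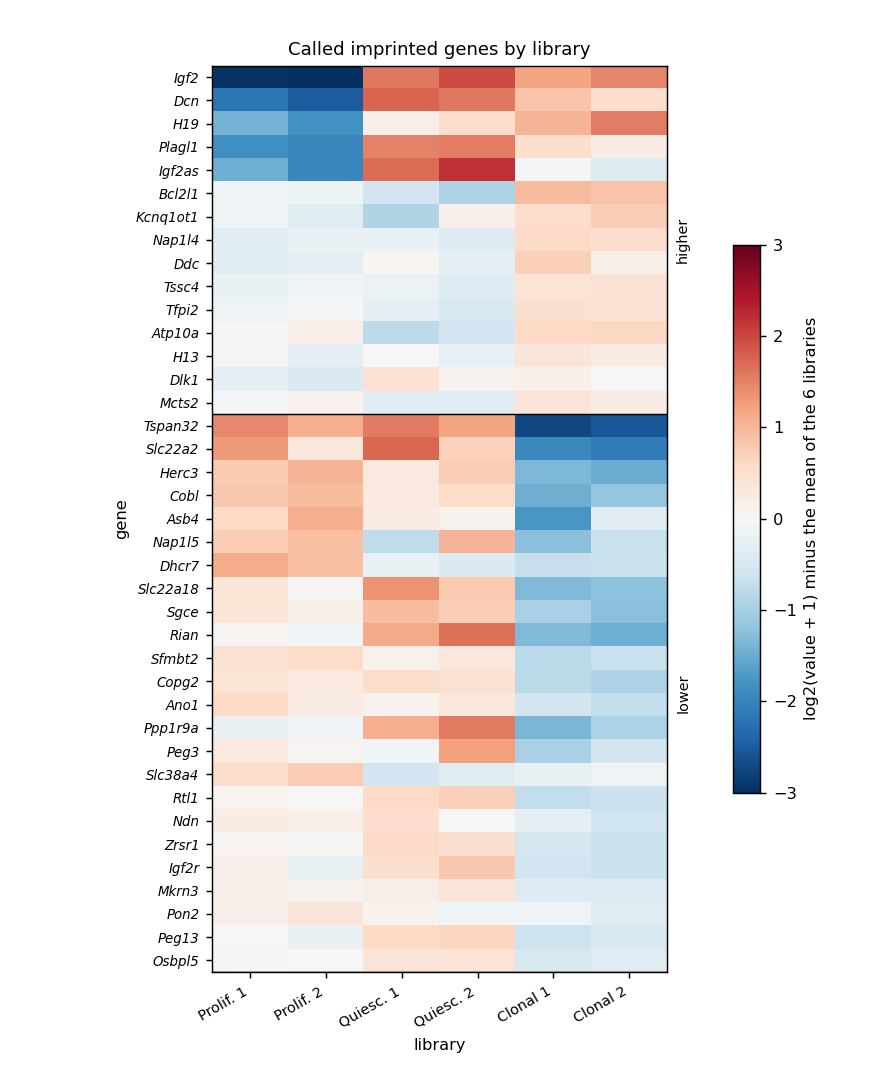
Heat map of the 39 imprinted genes called higher (upper block) or lower (lower block) at clonal expansion, by library, coloured by log2(value + 1) minus the mean of the 6 libraries; values beyond 3 in either direction take the end colour, as for Igf2 at proliferation. Igf2, Dcn, Plagl1 and Igf2as are low at proliferation and high at quiescence, and Tspan32 and Slc22a2 are low at clonal expansion.

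Genes of growth arrest and of the p53 response gave no common direction. Of 25 growth arrest genes 8 were higher and 10 lower, near the background shares. Gas2, a microtubule and actin linker, stood at 12817 and 14295 at proliferation and 1039.8 and 720.3 at clonal expansion, a log2 fold change of -3.97 ± 0.19 (SE, adjusted p = 2.94e-07), and Gas1, a membrane protein of arrested fibroblasts, at 78972 and 68193 at proliferation and 27495 and 23669 at clonal expansion (-1.52 ± 0.14 SE, adjusted p = 1.14e-05), with quiescence at 105574 and 108920.2. Gas6, a ligand of the Axl receptor, rose from 153571 and 125101 to 639536 and 539938 (2.08 ± 0.16 SE, adjusted p = 3.8e-06). Of 26 p53 targets 12 (46.2%) were lower, among them Bbc3, the death gene PUMA, from 4621 and 3674 to 628 and 509.6 (-2.86 ± 0.18 SE, adjusted p = 1.01e-06), and 4 higher, among them Aen, an apoptosis nuclease (1.22).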

How the data were processed

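Unstranded TruSeq RNA libraries of 3T3-L1 cells at 4 stages, 2 a stage, were sequenced as single reads. The deposited table holds 1 signal value per gene and library, which the name of the authors' file gives as pseudo-counts from edgeR with relative log expression (RLE) scaling, that is, read counts brought to a common library size. CASAVA 1.8.2, edgeR and the mouse build mm9 are named in the submitters' processing notes, and the aligner and gene models are not given in the sources used here. Because the values are not raw counts, they were compared as log2(value + 1) with limma 3.58.1 in R 4.3.3, with a mean-variance trend. All 8 libraries entered the fit (residual degrees of freedom 4, or 9.78 with the prior), and p-values were adjusted by the Benjamini-Hochberg method over the 14647 genes whose mean reached 10, with a threshold of 0.05. Sums of the pseudo-counts stand in for depth, since raw read totals were not used here.

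The gene lists (39, with 1369 of 1374 symbols in the table, 7 of them by a synonym) and the rule for named genes were chosen with earlier results of these data known, so list counts are descriptions. Named were the 12 largest changes each way among called genes whose higher state averaged 200 or more and whose groups did not overlap, up to 5 genes of each list each way, and a fixed set of cell cycle, adipogenic and imprinted genes. Each was recomputed under 19 alternatives (added constant, filter, scaling, libraries in the fit, variance model, replicate block, length and GC trend, and each library left out). The fit was tested on simulated data with 67 genes changed 1.5-fold, 67 changed 2-fold and 66 changed 4-fold, of 14647. It recovered 41.8%, 74.6% and 95.5% of these, and 6.62% of its calls were false. Far fewer genes were changed there than were called in the data. The simulated noise was normal, independent between libraries and drawn with the fit's own variances. The simulation therefore cannot give the error rate where real libraries depart from that. The main fit used no block for the experiment number, and a fit with that block is given below. Same-numbered libraries deviated together little between the states (r = 0.025), which cannot tell whether the numbers pair the samples. Promoter windows are RefSeq sequences of GRCm38.p6, a build that differs from that of the table, and were joined by gene, 11440 genes matching. Some genes that the rule names are not reported here. Python 3.11.15 with pandas 2.3.3, numpy 2.4.6 and matplotlib 3.10.9 was used for the rest.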

Additional observations from a re-analysis of the deposited data

How the results depend on the processing

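With equal totals the counts of called members became 3183 (from 4792) for genes higher, 4 (from 2) for G1 cyclins lower, 9 (from 5) for DNA synthesis enzymes lower, 1 (from 3) for histones higher, 5 (from 3) for Myc network genes lower, 1 (from 0) for ribosome biogenesis genes lower, 7 (from 19) for ribosomal proteins higher, 16 (from 1) for ribosomal proteins lower, 2 (from 1) for nucleotide genes lower, 3 (from 9) for inhibitors of adipogenesis higher, 2 (from 5) for actin genes higher, 11 (from 18) for TGF-beta genes higher, 13 (from 8) for TGF-beta genes lower and 8 (from 15) for imprinted genes higher. Quantile normalization gave 4 (from 2) for G1 cyclins lower, 9 (from 3) for histones higher, 2 (from 4) for histones lower, 3 (from 1) for mitotic entry genes higher, 1 (from 0) for mitotic exit genes higher, 1 (from 0) for ribosome biogenesis genes lower, 15 (from 1) for ribosomal proteins lower, 2 (from 1) for nucleotide genes lower and 2 (from 5) for actin genes higher. Without a filter on low values they were 0 (from 1) for licensing genes lower, 2 (from 5) for DNA synthesis enzymes lower, 1 (from 3) for histones higher, 2 (from 1) for mitotic entry genes higher, 0 (from 1) for ribosomal proteins lower, 3 (from 6) for glycolysis genes lower, 8 (from 13) for adipocyte genes lower, 5 (from 9) for inhibitors of adipogenesis higher and 7 (from 11) for collagens higher. A fit of the 4 libraries alone gave 0 (from 1) for licensing genes lower, 2 (from 1) for mitotic entry genes higher, 1 (from 0) for mitotic exit genes higher, 3 (from 1) for ribosomal proteins lower and 2 (from 1) for cholesterol genes higher. A fit without the quiescence libraries gave 2 (from 1) for mitotic entry genes higher, 1 (from 0) for mitotic exit genes higher, 3 (from 1) for ribosomal proteins lower and 2 (from 1) for cholesterol genes higher. Without the mean-variance trend they were 0 (from 1) for licensing genes lower. With the length and GC trend removed they were 3 (from 1) for mitotic entry genes higher, 1 (from 0) for mitotic exit genes higher, 4 (from 1) for ribosomal proteins lower, 2 (from 1) for cholesterol genes higher, 3 (from 6) for glycolysis genes lower and 7 (from 4) for p53 targets higher.

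With 1 library left out at a time, the counts ranged over 0 to 1 licensing genes lower, 3 to 7 DNA synthesis enzymes lower, 1 to 4 histones higher, 2 to 5 histones lower, 1 to 3 mitotic entry genes higher, 0 to 1 mitotic exit genes higher, 10 to 22 ribosomal proteins higher, 0 to 3 ribosomal proteins lower, 1 to 2 cholesterol genes higher, 3 to 6 glycolysis genes lower, 8 to 14 adipocyte genes lower, 4 to 9 inhibitors of adipogenesis higher, 3 to 6 actin genes higher and 5 to 9 TGF-beta genes lower. Of the 341 named genes called, 45 lost the call under at least 1 of the 19 alternatives. Dlk1 was the called gene that turned, to -0.39 with quantile normalization. Some genes that were not called changed sign. Ccnd2 (-0.061 as reported) was at 0.096 with the length and GC trend removed. Cdk4 (-0.002 as reported) was at 0.079 with the length and GC trend removed and -0.062 to 0.057 with 1 library left out. Cdk6 (0.22 as reported) was at -0.050 with equal totals and -0.25 to 0.70 with 1 library left out. Rbl1 (-0.088 as reported) was at 0.050 with the length and GC trend removed and -0.34 to 0.17 with 1 library left out. Cdkn1a (-0.022 as reported) was at 0.074 with the length and GC trend removed and -0.17 to 0.12 with 1 library left out. Cdkn1c, which is near 0 in all 4 libraries compared, (-0.43 as reported) was at -0.98 to 0.12 with 1 library left out. Cdk1 (-0.26 as reported) was at -0.53 to 0.007 with 1 library left out. Igf1r (-0.18 as reported) was at 0.11 with the length and GC trend removed. Pparg (-0.071 as reported) was at -0.23 to 0.093 with 1 library left out. Mest (0.29 as reported) was at -0.091 to 0.68 with 1 library left out. Col1a1 (-0.12 as reported) was at 0.076 with the length and GC trend removed.

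The fit with the experiment number as a replicate block moved 1 count by more than 1.5 times, to 4 ribosomal proteins lower (1 as reported), and it called 2 named genes that were not called as reported, Nr4a1 (1.53, adjusted p = 0.0325) and Grb10 (-0.58, adjusted p = 0.0219). With the block 9854 genes were called, against 9500 as reported. Same-numbered libraries of proliferation and clonal expansion shared little (r = 0.025 between their deviations). That correlation covers only these 2 states and runs over all genes, so it cannot tell whether the numbers pair the samples. The cause of these changes was not tested. With 2 libraries a state the median SE was 0.142 and the smallest called difference 0.222, so differences below that were not called, and 3848 genes were below 1 pseudo-count in every library. Read depth before scaling is not given in the sources used here. Counts not listed stayed within 1.5 times under every alternative, in the 34 lists other than cell type markers and over all genes.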

Other observations

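Marker genes of other tissues were read for RNA of cells that the line could hold or resemble. Of the 13 muscle, bone and cartilage markers tested, 9 (69.2%) were lower and 1 was higher, the latter being Alpl. Des, the muscle intermediate filament desmin, stood at 1321 and 1037 at proliferation and 230.1 and 136 at clonal expansion (log2 fold change -2.72, adjusted p = 1.06e-05). The summed level of the list was 53272 and 59016 at proliferation and 23189 and 21368 at clonal expansion, and Myod1, the muscle master factor, was listed at about 0 in these 4 libraries.

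Of the 7 epithelial markers tested, 2 were higher and 2 lower, and their summed level was 2760 and 2458 at proliferation and 8396 and 10062 at clonal expansion. Krt15, a keratin of basal skin cells, stood at 2294 and 1961 at proliferation and 8095 and 9777 at clonal expansion (2.07). Krt14, another basal keratin, stood at 1.04 and 1.41 at proliferation and 14.1 and 13.2 at clonal expansion. Krt5, its usual partner, was at 101 and 96.4 at proliferation and listed at about 0 at clonal expansion. Epcam, which marks most epithelia, was listed at about 0 in the 4 libraries compared. Of the 7 endothelial markers tested 5 were lower and 1 higher, Cdh5, VE-cadherin, from 91.9 and 64.5 to 236 and 196 (1.47). Of the 8 macrophage and blood markers tested 1 was higher and 3 were lower. Their sums went from 5727 and 4984 to 4764 and 3558, and the leukocyte marker Ptprc reached 1.04 and the macrophage marker Emr1 1.03 at most in these libraries. Of the 15 fibroblast and preadipocyte markers 5 were higher and 5 lower, shares close to those of all genes. The part of these levels in other results was not tested.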
